A study of Mus musculus with 195 samples.

Results

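The genes described here encode the initiation and elongation factors of cytoplasmic protein synthesis. They were taken by symbol from the GENCODE M21 annotation of GRCm38, as protein-coding genes named Eif1 to Eif6, Eef, Bzw1 or Bzw2, which gave 71 genes. Of these, 66 had a row among the 19736 genes of the deposited table, and Eef1a2, Eef1akmt4, Eif4e1b, Eif4e3 and Eif4ebp3 had none. Molecules were counted in single mouse cells by BATSeq, a method that reads the 3′ end of each transcript and counts unique molecular identifiers, so that 1 molecule is counted once whatever the length of its transcript. ESC-2i cells were embryonic stem cells (ESCs) in serum-free medium with PD0325901 at 1 µM, CHIR99021 at 3 µM and LIF at 10 ng/ml. These are inhibitors of MEK and GSK3 and the cytokine that sustains self-renewal. ESC-FCS cells were grown in 10% serum with LIF at 10 ng/ml, and NSCs were neural stem cells derived from the ESCs and grown with EGF and bFGF. The media of ESC-2i and NSC both held N2 and B27 supplements. All came from a Sox1-GFP reporter line of E14tg2a origin and were sorted by DNA content and size as small cells in G0/G1. Each population had 48 cells in 2 library batches of its own, so no batch was shared between populations.

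After the authors' selection, 33 ESC-2i, 33 ESC-FCS and 41 NSC cells remained in the gene table, with 746922 molecules in all. The median cell held 10864 molecules in ESC-2i cells, 6375 in ESC-FCS and 3282 in NSC. No replicate culture of a population was described, so no test between populations was possible. A population difference also cannot be told apart from a difference between cultures or between their library batches. Levels are therefore given as molecules per 10000 molecules on genes, taken over all cells of a population together, with exact 95% intervals that cover counting error only, and with the value in each library batch. A gene was called different when its pooled levels differed at least 1.5-fold, both batches of one population lay above both of the other, and the 2 populations held at least 40 molecules together. Fewer transcripts of a gene and more of all others give the same change on this scale. The 11 pluripotency markers summed to 33.6 per 10000 in ESC-2i cells, 29.6 in ESC-FCS and 0.132 in NSC, where 9 of them, Pou5f1 and Nanog included, were at 0. The 10 neural stem cell markers were at 1.87, 1.28 and 49.5, with Pax6 at 0 in NSC, and the astrocyte markers Aldoc and Gfap summed to 15.5 in NSC, with Gfap at 0. The part of these cells, and of the lower depth of NSC, in the results below was not tested. Genes near the limit of 40 molecules can pass it by counting error, so intervals are given beside the ratios.

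Initiation begins when eIF1, eIF1A, eIF3 and the eIF2 ternary complex, which carries the initiator tRNA, load the small ribosomal subunit. The eIF4F complex (cap-binding eIF4E, helicase eIF4A and scaffold eIF4G) recruits the mRNA, and eIF5 and eIF5B then close the cycle. During elongation eEF1A delivers aminoacyl-tRNAs and eEF2 moves the ribosome along. eIF2B recharges eIF2 with GTP and is the target through which phosphorylation of eIF2α lowers initiation under stress.

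Together the 66 genes held 20279 molecules. They made up 2.6% of all molecules on genes in ESC-2i cells (95% interval 2.55 to 2.65), 2.95% in ESC-FCS (2.88 to 3.02) and 2.64% in NSC (2.56 to 2.72). The batches gave 2.64% and 2.57% in ESC-2i, 2.98% and 2.92% in ESC-FCS, and 2.61% and 2.67% in NSC, so both ESC-FCS batches lay above the other 4. Single cells ranged from 2.1% to 3.48% in ESC-2i, from 1.67% to 3.56% in ESC-FCS and from 1.7% to 3.26% in NSC, and overlapped widely. The 10 genes with most molecules were Eef1a1, Eef1b2, Eef1g, Eef2, Eif5a, Eif4a1, Eif2s2, Eif3k, Eif4ebp1 and Eif3f. The top 4 genes of a population gave 39.3% of the members' molecules in ESC-2i cells, 40.2% in ESC-FCS and 33.1% in NSC. At the other end, Eef1akmt3 was at 0 in ESC-2i and NSC, Eif5a2 in ESC-FCS and Eif2ak2 in NSC. A count of 0, taken as a limit of 3 molecules in the population, allows a level of up to 0.0814 per 10000 in ESC-2i cells, 0.132 in ESC-FCS and 0.198 in NSC.

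**Figure D1:**
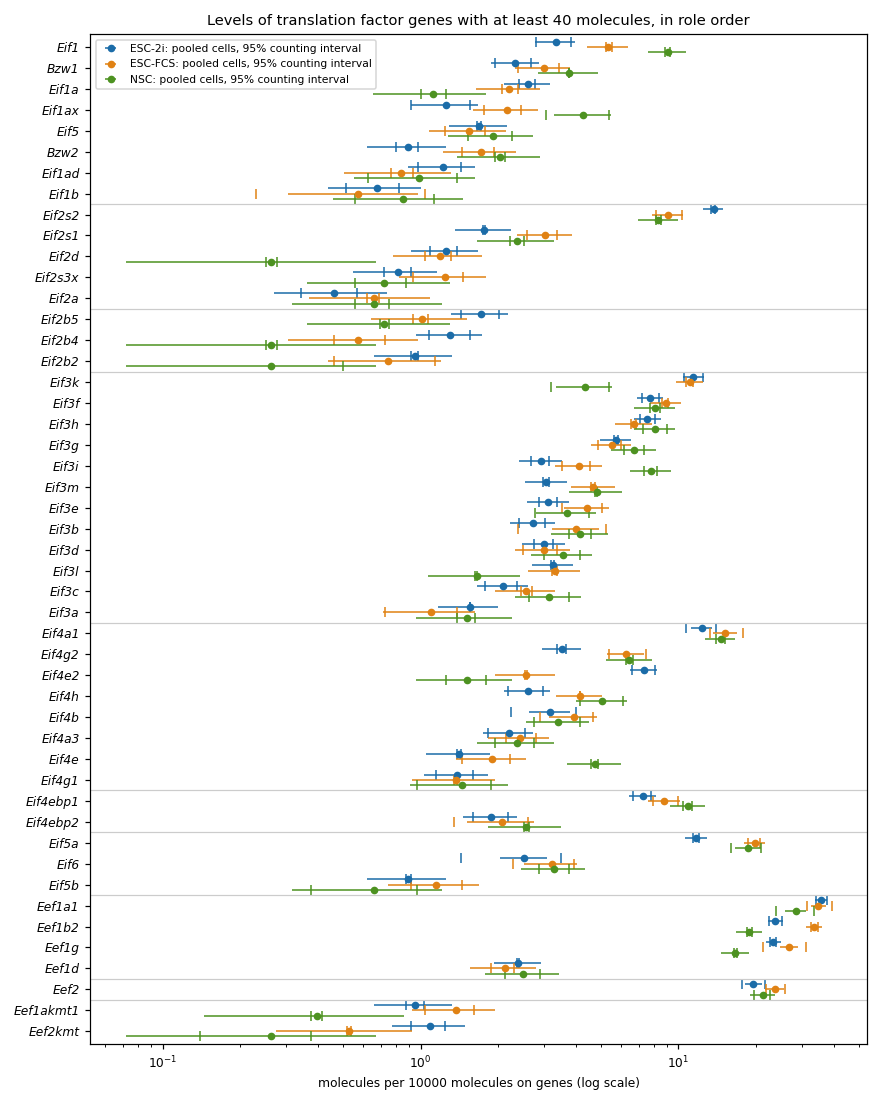
Level of the 48 genes with at least 40 molecules, in molecules per 10000 molecules on genes (log scale), grouped by role. Filled points are the pooled cells of a population with exact 95% counting intervals, and ticks are its 2 library batches (a batch at 0 has no tick). The eEF1 genes, Eef2 and Eif5a sit at the right, and Eif3k, Eif4e2 and the eIF2B genes lie to the left in NSC.

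NSCs were set against ESC-2i first. Of 45 members with at least 40 molecules (the other 26 had fewer or no row), 12 were higher in NSC and 10 lower, or 26.7% and 22.2%. Over all 2450 genes with enough molecules, 22.1% were called higher and 30.7% lower, so the members' counts did not stand far from the background. The 95% interval of the ratio excluded 1 for all 22. The median ratio was 1.08 for the members and 0.911 for all genes tested. Against ESC-FCS, 37 members were tested, of which 4 were higher in NSC and 6 lower (10.8% and 16.2%). The background there was 23.8% higher and 24.6% lower. The medians were 1.03 for the members and 0.97 for all genes. ESC-FCS cells against ESC-2i cells gave 9 higher and 5 lower of 46, or 19.6% and 10.9%, beside a background of 14.4% and 19.9% and medians of 1.18 and 0.981. The comparisons share cells, so their calls are not independent. Eif1, Eif1ax, Eif3i and Eif4e were higher in NSC against both ESC populations, and Eif1a, Eif3k, Eif3l and Eif4e2 lower. A further 20 members with a row in the table were below the limit of molecules in each comparison, among them all eIF2α kinases, Eif2b1, Eif2b3, Eef2k and Eef1e1.

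**Figure D2:**
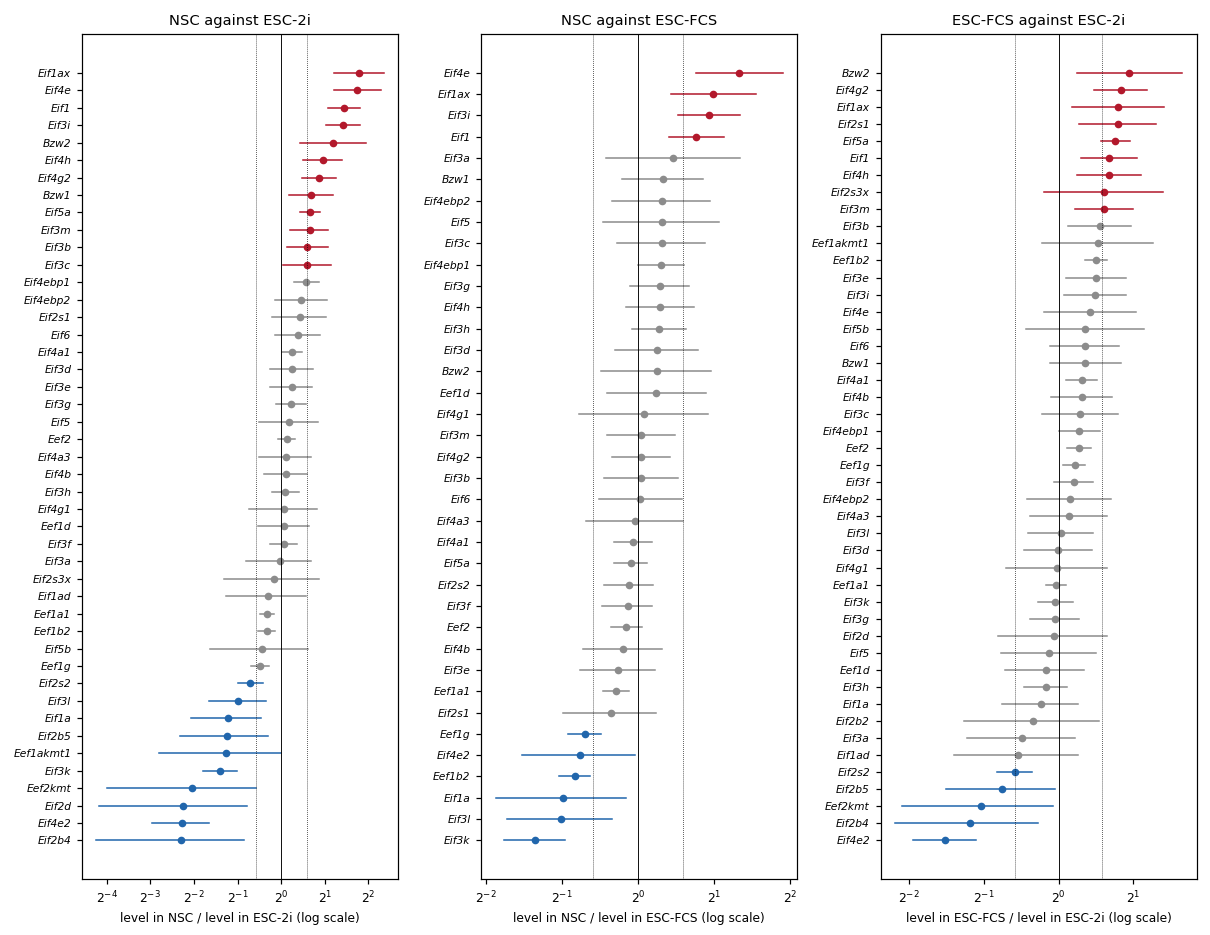
Level ratio of each tested gene (log scale) in the 3 comparisons, with exact 95% counting intervals. Red genes were called higher and blue genes lower in the population named first, grey genes were not called, and dotted lines mark the 1.5-fold limits. In NSC against ESC-2i, Eif1ax and Eif4e lie farthest to the right, at 3.43 and 3.36, and Eif2b4 and Eif4e2 farthest to the left, at 0.202 and 0.207.

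The factors that select the start codon and genes listed with them, Eif1ad included, were summed first. These 8 genes held 14 molecules per 10000 in ESC-2i cells, 17.4 in ESC-FCS and 24 in NSC, and the batches did not overlap between NSC (25.2 and 22.7) and the ESC populations (12.1 to 17.9). Eif1, the most abundant of them, encodes the factor that keeps the scanning ribosome open until an AUG is paired. It was at 3.34 in ESC-2i cells (batches 2.81 and 3.82), 5.34 in ESC-FCS (5.22 and 5.5) and 9.09 in NSC (8.9 and 9.29). All 33 ESC-2i cells held a molecule of it, with a lowest, median and highest level of 0.686, 3.24 and 14.3. NSCs ran from 0 through a median of 8.16 to 23, so single cells of the populations overlapped although the batches did not. NSC exceeded ESC-2i by 2.72-fold (2.12 to 3.5) and ESC-FCS by 1.7-fold (1.32 to 2.19), and ESC-FCS exceeded ESC-2i by 1.6-fold (1.23 to 2.07). Its paralogue Eif1b was rare, at 0.679, 0.573 and 0.856, and was under the limit of molecules in each comparison.

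Eif1ax and Eif1a, which encode closely related forms of eIF1A, took opposite orders. Eif1ax was at 1.25 in ESC-2i cells (0.917 and 1.55 in the batches), 2.16 in ESC-FCS (2.46 and 1.76) and 4.28 in NSC (5.39 and 3.05). The ratio was 3.43 (2.31 to 5.11) for NSC against ESC-2i, 1.98 (1.35 to 2.93) for NSC against ESC-FCS and 1.73 (1.13 to 2.65) for ESC-FCS against ESC-2i. Eif1a was at 2.61 in ESC-2i cells, 2.21 in ESC-FCS and 1.12 in NSC, with NSC batches of 1 and 1.25 below the 2.07 to 2.78 of the ESC batches. Only 14 of 41 NSCs held a molecule of Eif1a, as compared to 31 of 33 ESC-2i cells. Thus Eif1ax gave 32.4% of the molecules of this pair in ESC-2i cells (24.8 to 40.8), 49.5% in ESC-FCS (39.3 to 59.7) and 79.3% in NSC (68.9 to 87.4). The NSC batches, at 84.3% and 71%, lay above all ESC batches, which ran from 27.6% to 54.2%. Reads that aligned to several places were removed by the authors, so genes with near-identical copies can lose molecules, and the extent was not tested.

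Bzw1 and Bzw2 encode eIF5-mimic proteins, which compete with eIF5 for eIF2. Bzw1 was at 2.33 in ESC-2i cells, 3 in ESC-FCS and 3.75 in NSC, and was called only for NSC against ESC-2i, with a ratio of 1.61 (1.13 to 2.27). Bzw2 was at 0.896, 1.72 and 2.04. It was 2.28-fold higher in NSC than in ESC-2i (1.35 to 3.84) and 1.92-fold higher in ESC-FCS (1.18 to 3.15). Bzw1 gave 72.3%, 63.6% and 64.8% of the molecules of both genes, with overlapping intervals. Eif5 itself was not called, at 1.68, 1.54 and 1.91.

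The eIF2 subunits showed a different order. Eif2s2, the β subunit and the most abundant, was at 13.7 in ESC-2i cells (13.4 and 13.9 in the batches), 9.09 in ESC-FCS (8.21 and 10.3) and 8.36 in NSC (8.52 and 8.18). The ratio was 0.612 for NSC against ESC-2i (0.5 to 0.745) and 0.666 for ESC-FCS against ESC-2i (0.563 to 0.784). Per cell, ESC-2i ranged from 6.01 to 27.9 around a median of 12.9, and NSC from 0 to 23.5 around 7.2. Eif2s1, the α subunit that stress kinases phosphorylate, was higher in ESC-FCS (3.04) than in ESC-2i (1.76), with a ratio of 1.73 (1.21 to 2.46), and stood at 2.37 in NSC. The γ subunit has an X-linked and a Y-linked gene. Eif2s3x was at 0.814, 1.24 and 0.724, and although it passed the limits for ESC-FCS against ESC-2i its interval held 1 (0.873 to 2.63). Eif2s3y was at 0.462, 0.441 and 0.329, on 17, 10 and 5 molecules. Eif2d, an initiator-tRNA-binding factor outside the eIF2 complex, was at 1.25, 1.19 and 0.263, a 0.211-fold level in NSC against ESC-2i that rested on 4 NSC molecules (0.0551 to 0.578).

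The 5 eIF2B genes summed to 4.78 in ESC-2i cells, 3.66 in ESC-FCS and 1.84 in NSC. Both NSC batches (1.88 and 1.8) lay below the ESC batches (3.53 to 5.33). Eif2b4, for the δ subunit, was at 1.3 in ESC-2i cells, 0.573 in ESC-FCS and 0.263 in NSC. Its ratios to ESC-2i were 0.202 for NSC (0.0529 to 0.552) and 0.44 for ESC-FCS (0.219 to 0.825). Eif2b5, for the catalytic ε subunit, was at 1.71, 1.01 and 0.724, with ratios of 0.423 (0.201 to 0.81) and 0.593 (0.351 to 0.97). Counts were low, since NSC held 4 molecules of Eif2b4 and 11 of Eif2b5. The 4 eIF2α kinase genes summed to less than 1 in each population, at 0.977, 0.971 and 0.329, and none could be tested.

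The 14 eIF3 genes together were close to level, at 54.5 in ESC-2i cells, 59.7 in ESC-FCS and 58.1 in NSC. Single subunits departed from this. Eif3k, a peripheral subunit that pairs with Eif3l in the complex, was the most abundant eIF3 gene of both ESC populations, at 11.4 in ESC-2i (12.4 and 10.5) and 11.1 in ESC-FCS (11.4 and 10.7). In NSC it was at 4.35 (5.39 and 3.19), 0.38-fold the ESC-2i level (0.289 to 0.494) and 0.392-fold that of ESC-FCS (0.295 to 0.517). Per cell, Eif3k ranged from 4.75 to 22.5 around a median of 11.1 in ESC-2i, and from 0 to 13.7 around 3.44 in NSC. Eif3l was at 3.26, 3.31 and 1.65, with ratios of 0.505 (0.315 to 0.782) and 0.498 (0.303 to 0.792), and its NSC batches agreed closely (1.63 and 1.66). Together, Eif3k and Eif3l made up 27.1% of the molecules of the 12 most abundant eIF3 genes in ESC-2i cells (25.1 to 29.1), 24.2% in ESC-FCS (22 to 26.6) and 10.4% in NSC (8.46 to 12.6). In the ESC-2i pools made apart, described last, Eif3k was at 1.95 (3.55 and 0.404), the lowest of these 12 genes and below NSC. The lower level of Eif3k in NSC was thus not seen against them. Eif3l was at 5.99 there, above NSC, and Eif3k was at 9.6 in the ESC-FCS libraries made apart. The share of Eif3k and Eif3l was not computed for the libraries made apart.

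Eif3i, which belongs to a module with Eif3b and Eif3g, had the opposite order. It was at 2.93 in ESC-2i cells (2.69 and 3.15), 4.1 in ESC-FCS (4.53 and 3.53) and 7.84 in NSC (8.27 and 7.35), so NSC was 2.67-fold above ESC-2i (2.04 to 3.5) and 1.91-fold above ESC-FCS (1.44 to 2.53). All but 1 of the 41 NSCs held a molecule. Eif3b (1.51-fold), Eif3c (1.51-fold) and Eif3m (1.57-fold) were also called higher in NSC than in ESC-2i, just past the limit, and Eif3m was 1.52-fold higher in ESC-FCS than in ESC-2i (1.16 to 2). Of the others, Eif3f was at 7.76, 8.91 and 8.1 and Eif3h at 7.57, 6.71 and 8.1, and neither these nor Eif3a, Eif3d, Eif3e or Eif3g were called. Eif3j1 and Eif3j2 held at most 6 molecules in a population. The highest of the 12 subunits exceeded the lowest, Eif3a, 7.35-fold in ESC-2i, 10.1-fold in ESC-FCS and 5.36-fold in NSC.

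In the cap-binding group, Eif4e and Eif4e2 took opposite orders. Eif4e, the cap-binding subunit of eIF4F, was at 1.41 in ESC-2i cells (1.38 and 1.44), 1.9 in ESC-FCS (2.23 and 1.45) and 4.74 in NSC (4.89 and 4.58). The ratio to ESC-2i was 3.36 in NSC (2.32 to 4.89), and the ratio of NSC to ESC-FCS was 2.5 (1.69 to 3.74). Eif4e2 encodes 4EHP, which binds the cap but does not join eIF4G and acts in repression. It was at 7.33 in ESC-2i cells (8.14 and 6.6), 2.56 in ESC-FCS (2.53 and 2.59) and 1.51 in NSC (1.25 and 1.8), and every ESC-2i cell held at least 2 molecules. The ratio was 0.349 for ESC-FCS against ESC-2i (0.258 to 0.465), 0.207 for NSC against ESC-2i (0.129 to 0.317) and 0.592 for NSC against ESC-FCS (0.348 to 0.975). Eif4e gave 16.1% of the molecules of both genes in ESC-2i cells (12.3 to 20.6), 42.6% in ESC-FCS (32.8 to 52.8) and 75.8% in NSC (65.9 to 84).

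Most Eif4e2 molecules ended at position 87228061 of chromosome 1, which held 323 molecules, 251 of them in ESC-2i cells, 56 in ESC-FCS and 16 in NSC. This place lies 12427 nt before the end of the gene, where the annotated protein-coding transcript Eif4e2-204 ends. The other sites of Eif4e2 held 19 molecules in ESC-2i cells, 2 in ESC-FCS and 7 in NSC, so the lower level was one of molecules with this early end. Eif2d also had most molecules at an early end, with 63 at position 131173472 of the same chromosome, the end of Eif2d-202. Of these, 35, 24 and 4 lay in ESC-2i, ESC-FCS and NSC. Its other sites held 11, 3 and 0 molecules, so its other ends were fewer in NSC too.

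Of the scaffolds, Eif4g2 (the eIF4G relative without an eIF4E-binding site) was at 3.53 in ESC-2i cells, 6.26 in ESC-FCS and 6.45 in NSC, with ratios to ESC-2i of 1.78 (1.39 to 2.27) and 1.83 (1.39 to 2.39). Eif4g1 was not called, at 1.38, 1.37 and 1.45, and Eif4g3 held at most 11 molecules per population. The helicase cofactor Eif4h was at 2.61, 4.15 and 5.07, 1.59-fold (1.18 to 2.14) and 1.95-fold (1.42 to 2.65) above ESC-2i in ESC-FCS and NSC. Eif4a1, the helicase, was at 12.3, 15.2 and 14.6 and was not called, and it outnumbered Eif4a2, giving 96%, 96.4% and 97.4% of their molecules. The eIF4E inhibitors were not called either. Eif4ebp1 was at 7.28, 8.82 and 10.9, and although the interval of its NSC to ESC-2i ratio excluded 1 (1.49, 1.22 to 1.82), the ratio was under 1.5. Eif4ebp2 was at 1.87, 2.07 and 2.57.

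Eif5a, whose hypusine-bearing product helps ribosomes through difficult peptide bonds, was at 11.7 in ESC-2i cells (12 and 11.4), 19.8 in ESC-FCS (20.7 and 18.6) and 18.6 in NSC (20.9 and 16). ESC-FCS was 1.69-fold above ESC-2i (1.48 to 1.94) and NSC 1.59-fold (1.36 to 1.85), while NSC and ESC-FCS were not called apart. Eif5b, the GTPase of subunit joining, was at 0.896, 1.15 and 0.658, and Eif6, which keeps free large subunits apart, at 2.52, 3.22 and 3.29, with no call. The relative Eif5a2 held 3 molecules in ESC-2i cells, 0 in ESC-FCS and 1 in NSC.

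Among elongation factors, the genes listed with the eEF1 complex, Eef1e1 included, summed to 85.4 in ESC-2i cells, 98.2 in ESC-FCS and 67.1 in NSC. The batches of NSC (61.9 and 72.8) lay below those of both ESC populations (82.9 to 98.6). In the ESC-2i pools made apart, Eef1a1 was at 16.3 and Eef1b2 at 7.95, below NSC, and Eef1g at 23.8, above it. Eef1b2 and Eef1g, subunits of the factor that recharges eEF1A with GTP, were lower in NSC than in ESC-FCS. Eef1b2 was at 23.7, 33.5 and 18.8 in ESC-2i, ESC-FCS and NSC, a ratio of NSC to ESC-FCS of 0.562 (0.489 to 0.644). Eef1g was at 23.3, 26.9 and 16.6, a ratio of 0.617 (0.53 to 0.715). Eef1a1 was at 35.7, 34.9 and 28.5, with NSC batches of 23.9 and 33.6, and its ratios stayed within 1.5-fold. Eef1a1 has many processed pseudogenes, so the removal of multiply aligned reads bears on it too. Eef2 was at 19.5, 23.6 and 21.2 and was not called. Of the methyltransferases that modify elongation factors, Eef2kmt was at 1.09, 0.529 and 0.263, 0.243-fold in NSC (0.063 to 0.671) and 0.488-fold in ESC-FCS (0.233 to 0.948) against ESC-2i. Eef1akmt1 was at 0.95, 1.37 and 0.395, and its NSC to ESC-2i ratio of 0.416 had an interval that nearly held 1 (0.143 to 0.999).

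The other translation genes were read from lists, whose counts stand beside 22.1% of all genes called higher and 30.7% lower in NSC against ESC-2i. Of 6 termination and recycling genes tested, Gspt1 (2.71-fold), Denr (2.43-fold) and Mcts1 (1.78-fold) were higher in NSC than in ESC-2i and none was lower. The products of Denr and Mcts1 form a complex related in sequence to Eif2d. Of 4 genes of hypusine synthesis and polyamine metabolism, the polyamine genes Sms (3.23-fold), Srm (2.98-fold) and Oaz1 (2.41-fold) were higher. Dohh, which completes hypusine, was at 0.849-fold and not called, and Dhps, which starts it, was under the limit of molecules. Sms and Srm were also higher in ESC-FCS than in ESC-2i, 2.57-fold and 2.75-fold, beside 14.4% of all genes. Larp1, a regulator of mRNAs for the translation machinery, was the single call of 4 genes in the poly(A)-binding list, 2.74-fold higher in NSC. In the integrated stress response list 2 genes could be tested in NSC against ESC-2i, of which Atf4 was 1.9-fold higher and its target Asns lower, at 0.488-fold. Against ESC-FCS both were higher in NSC, Atf4 4.67-fold and Asns 2.43-fold. In ESC-FCS against ESC-2i both were lower, Atf4 at 0.406-fold and Asns at 0.201-fold, with 3 genes tested. Tufm, the mitochondrial elongation factor, was 1.8-fold higher in NSC and the only gene of its list with enough molecules. Of the mTOR and MNK list, 1 gene was tested and not called.

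The 3′ ends were compared next. For each gene, the most used polyadenylation site and the most used other site at least 100 nt away were taken, and the share of their molecules at the downstream site was computed. A shift was called when the share differed by at least 10 percentage points, both batches lay on the same side, and each population held at least 20 molecules at the sites. Of 48 genes with at least 40 molecules, 29 had more than 1 site with 5 molecules or more, and 19 had a single one. For all but 3 of the 66 genes the most used site lay in a 3′ UTR.

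In NSC against ESC-2i, 6 of 29 members used the downstream site more (20.7%) and 0 less, beside 11.1% and 2.3% of 912 genes. In NSC against ESC-FCS, 4 of 29 used it more and 1 less, beside 8.3% and 2.93% of 819 genes. In ESC-FCS against ESC-2i, 4 of 36 used it more and 2 less, beside 6.27% and 3.72% of 1451 genes. Longer 3′ ends in NSC were thus also the commoner direction over all genes. The members' median difference was small, at 1.69 points for NSC against ESC-2i, 0.636 for NSC against ESC-FCS and 0.971 for ESC-FCS against ESC-2i.

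The windows of 6 of the 9 genes with a shift are given to show which ends were compared. Each is the 30 bases up to the deposited position, 5′ to 3′ on the sense strand, read from GENCODE M21 transcripts of GRCm38. Capitals mark the poly(A) signal AATAAA or, where that is missing, its variant ATTAAA, searched on the sense strand only.
Bzw1 upstream, chr1:58406517-58406546, + strand: ttttttttttttaaAATAAAgtccatcctt
Bzw1 downstream, chr1:58407322-58407351, + strand: agcaccccAATAAAttttaatatagatata
Eif1 upstream, chr11:100321505-100321534, + strand: ctccttcatgcAATAAActgaaaagagcca
Eif1 downstream, chr11:100322059-100322088, + strand: tttaaatccttatttaAATAAAgcttgttt
Eif4b upstream, chr15:102095402-102095431, + strand: ccagacaagacaaAATAAActcaccatctc
Eif4b downstream, chr15:102097140-102097169, + strand: tttttctccaAATAAAtccagtctttaaag
Eif2s2 upstream, chr2:154872437-154872466, - strand: tgcaagataaATTAAAgttattataacagt
Eif2s2 downstream, chr2:154871418-154871447, - strand: gAATAAAgcaaggatcagtgcctcctgtgt
Eif4g2 upstream, chr7:111071934-111071963, - strand: ttgtatctatcAATAAAcattgtgatactt
Eif4g2 downstream, chr7:111070731-111070760, - strand: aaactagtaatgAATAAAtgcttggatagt
Eif4e upstream, chr3:138556116-138556145, + strand: cagaaaggtggAATAAAcattaaatttgtg
Eif4e downstream, chr3:138556428-138556457, + strand: AATAAAatgtgtacagtgaattgtctttta

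Each window above holds a signal, which is AATAAA except at the upstream site of Eif2s2. Of the 3 genes not shown, Bzw2 at its upstream site and Eif3c at its downstream site had neither. Among all sites with at least 10 molecules that lie in an annotated exon of their gene (8026 sites), 64.3% had AATAAA in such a window and 15.3% only ATTAAA. Among the members' 97 sites, the shares were 58.8% and 19.6%. Whether deposited positions count from 0 or 1 is not given in the sources used here, and they were read as counting from 1. The commonest position lay 3 nt before the annotated end on the + strand and 1 nt before it on the - strand.

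Bzw1 had the largest shift in the main cells. Its 2 sites lie 805 nt apart in the 3′ UTR, and the downstream one took 30.7% of molecules in ESC-2i cells (20.5 to 42.4), 43.6% in ESC-FCS (30.3 to 57.7) and 73.6% in NSC (59.7 to 84.7). The batches were 32.3% and 29.5% in ESC-2i, 41.7% and 47.4% in ESC-FCS, and 82.1% and 64% in NSC, so no population overlapped another. The counts behind these shares were 75, 55 and 53 molecules. As a level, the upstream end was at 1.41 per 10000 in ESC-2i and 0.922 in NSC, whereas the downstream end was at 0.624 and 2.57. The higher total in NSC thus lay in the longer form. Of the NSCs with a molecule, 16 held the downstream end alone, 5 the upstream end alone and 7 both. In 2 pools of 48 ESC-2i cells made apart, described last, the downstream share was 79.5% (75.4 to 83.2), above that of NSC, so this shift was not seen against them.

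Eif1, with ends 554 nt apart, had 68.6% of molecules at the downstream end in ESC-2i cells (59.5 to 76.7), 86% in ESC-FCS (78.5 to 91.6) and 91.3% in NSC (85.3 to 95.4). It was called for NSC against ESC-2i, a difference of 22.7 points. The ESC-2i pools made apart had 98.3% downstream (96.3 to 99.4), above NSC. ESC-FCS was not called apart from ESC-2i because an ESC-FCS batch (77.9%) lay below an ESC-2i batch (79.6%). The level of the short form stayed between 0.75 and 1.03 in all populations, while that of the long form was at 2.25, 4.59 and 8.3.

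Eif4b, whose product stimulates the helicase eIF4A, had 61.2% downstream in ESC-2i cells (50.8 to 70.9), 87.5% in ESC-FCS (77.6 to 94.1) and 78% in NSC (64 to 88.5). ESC-FCS differed from ESC-2i by 26.3 points and NSC by 16.8. A further site between these, at position 102096573, held 13 molecules in each ESC population and 0 in NSC. Eif2s2 had 10.8% downstream in ESC-2i cells (7.89 to 14.2), 23.6% in ESC-FCS (17.5 to 30.6) and 28.9% in NSC (20.8 to 38.2). The ESC-2i pools made apart had 46.4% (43.9 to 48.8), above NSC, so the direction against ESC-2i turned over with them. In the main cells the form with the early end carried the lower total. It was at 9.69 per 10000 in ESC-2i cells, 5.87 in ESC-FCS and 5.33 in NSC, as the form with the late end stood at 1.17, 1.81 and 2.17. Eif2s2 also had 4 sites in the coding part of exons. The one at position 154888339 of chromosome 2 held 28 molecules in ESC-2i cells, 6 in ESC-FCS and 3 in NSC, and the one at 154887772 held 20, 1 and 0. The gene overlaps a gene on the opposite strand, nonagouti.

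In Eif4g2 and Eif4e, ESC-FCS stood apart from both other populations in the main cells. Eif4g2 had 35.2% downstream in ESC-2i cells (26.8 to 44.4), 19.8% in ESC-FCS (13.3 to 27.9) and 41% in NSC (30.3 to 52.3), with ESC-FCS batches of 22.4% and 17.6% below the 32.4% to 43.2% of the others. ESC-FCS was 15.4 points below ESC-2i, and NSC 21.1 points above ESC-FCS. Eif4e had 71.9% in ESC-2i cells (53.3 to 86.3), 53.3% in ESC-FCS (34.3 to 71.7) and 75.5% in NSC (61.7 to 86.2), with intervals that overlap on 32, 30 and 53 molecules.

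The other shifts were smaller or rested on fewer molecules. Bzw2 had 68.8% downstream in ESC-2i cells, 83.3% in ESC-FCS and 82.8% in NSC, on 32, 36 and 29 molecules with overlapping intervals. In the libraries made apart, the ESC-2i pools had 91.5% (87.4 to 94.6), above NSC, and ESC-FCS had 100% (93 to 100). Eef1d used its downstream end in 4 of 38 NSC molecules (10.5%, 2.94 to 24.8) and in 0 of 88 in ESC-2i and 0 of 48 in ESC-FCS, which at a limit of 3 molecules allow shares of up to 3.41% and 6.25%. The ESC-2i pools had 4.44% there (2.23 to 7.8). Eif3c had 6.58%, 17.5% and 4.26% downstream and was called lower in NSC than in ESC-FCS by 13.3 points. Most abundant members held to a single end. Eef1a1, Eef1b2, Eif3f, Eif3h and Eif3b had at least 98% of molecules downstream in each population, and Eif5a, Eif3g and Eif3k at most 2%.

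**Figure D3:**
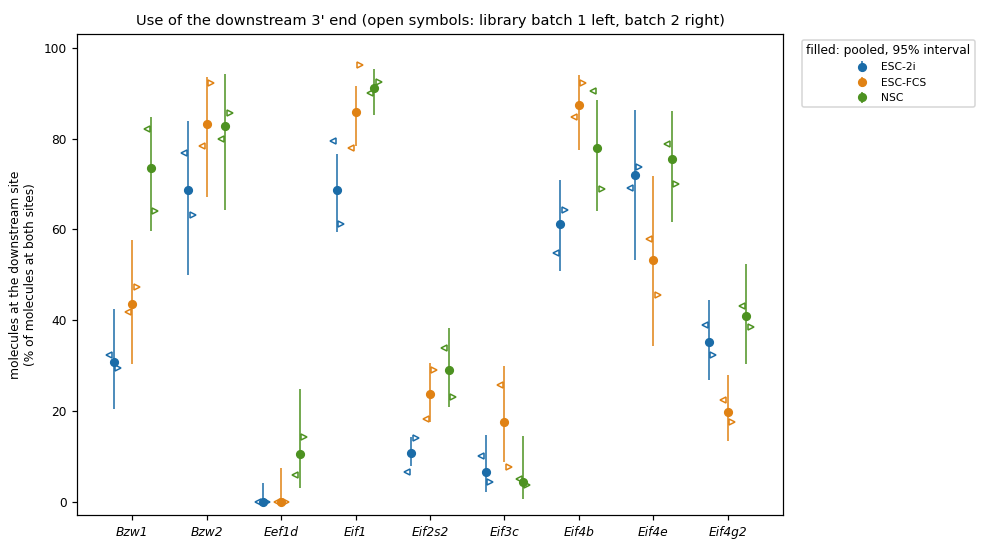
Share of molecules at the downstream of 2 polyadenylation sites (% of molecules at both) for the 9 genes with a called shift. Filled points are pooled cells with exact 95% intervals, and open triangles the library batches. Bzw1 runs from 30.7% in ESC-2i to 73.6% in NSC.

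Variation between cells was then tested within each population, as variance above the noise of ERCC spike-in RNA and a margin of 0.25 in squared coefficient of variation (chi-square test with Benjamini-Hochberg adjustment over all genes, called at an adjusted p under 0.1). Of 49 members tested in ESC-2i, 0 were called, and 0 had an unadjusted p under 0.05. The background there was 0.608% of 3616 genes. In ESC-FCS 1 of 43 was called beside 3.36% of 2026 genes. In NSC 2 of 30 were called beside 10.7% of 1157 genes. All 3 shares were near or below the background of their population.

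The call in ESC-FCS was Eif2b3, an eIF2B subunit gene, with 13 molecules in 10 of 33 cells and an adjusted p of 2.02e-11. No cell held more than 2 molecules, but a cell with 1079 molecules on genes, the shallowest of the population, held 2, a level of 18.5 per 10000. With cells of at least 2000 molecules, 0 members were called. The calls in NSC were Eif3e (adjusted p = 0.000811) and Eif4e (adjusted p = 0.016). Of 56 Eif3e molecules, 9 lay in a cell of 2454 molecules, all at a single site, and the next cells held 5 and 4. Of 72 Eif4e molecules, 12 lay in a cell of 6690 molecules, and the next held 6 and 5. In cells of at least 2000 molecules Eif3e was still called and Eif4e had an adjusted p of 0.155. In library batch 2 alone neither was, with adjusted p of 1 and 0.667.

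Finally, ESC-FCS and ESC-2i were compared in libraries made apart, which were 42 ESC-FCS control cells and an ESC-FCS pool of 48 cells against 2 ESC-2i pools of 48 cells. ESC-2i was present there as pools alone, so medium and kind of library cannot be told apart for the single cells. The control cells were also sequenced with barcode pairs that main ESC-2i cells carry, which all 48 of them shared. The 2 ESC-2i pools carried the batch barcodes of the NSC batches, and the ESC-FCS pool that of a main ESC-FCS batch. All genes had a median ratio of 0.692. Of 57 members tested, 12 were higher in ESC-FCS and 21 lower, beside 19.2% and 42.6% of 6308 genes. Ratios in these libraries are therefore read against that median. Of the 9 members that the main cells called higher, 7 lay above it, and Eif1ax, Eif2s3x, Eif3m and Eif5a were called higher again, with ratios of 3.78, 2.23, 2.15 and 1.97. Eif4g2, at 0.74, lay above the median though below 1, Eif2s1, at 0.634, just below it, and Bzw2, at 0.481, below it. In the pools alone, Bzw2 was at 1.12 per 10000 in ESC-FCS and 2.57 and 2.91 in ESC-2i. Of the 5 called lower in the main cells, 4 lay below the median. Eif2b5, Eif2b4 and Eef2kmt were called again by the limit on the ratio itself, with ratios of 0.185, 0.32 and 0.515. Divided by the median these were 0.267, 0.462 and 0.744, so Eef2kmt lay within 1.5-fold of the median. Eif2s2, at 0.681, was next to it. Members with no call in the main cells also stood apart here. Eef1a1 was at 101 and 97.1 per 10000 in the batches of ESC-FCS control cells and 41.3 in the ESC-FCS pool, as compared to 13.9 and 18.7 in the ESC-2i pools, whereas the main ESC-FCS cells had it at 34.9. Eif3k was 4.92-fold higher in ESC-FCS (4.13 to 5.89), with ESC-2i pools at 3.55 and 0.404, while the main populations of ESCs differed little in it (0.969, 0.825 to 1.14). Eif4e2 lay above the median, at 0.861-fold (0.702 to 1.05), as compared to 0.349-fold in the main cells, and the 2 ESC-2i pools differed for it, at 5.59 and 2.26 per 10000. The 2 ESC-2i pools together were above NSC in Bzw1, Bzw2, Eif3b, Eif3c, Eif4g2 and Eif4h, which the main cells called higher in NSC. They were below NSC in Eif3k and Eef1akmt1, which the main cells called lower in NSC. The other members called in NSC against ESC-2i kept their direction against the pools. No median over all genes was taken for NSC against the pools, so these levels are compared as counted.

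**Figure D4:**
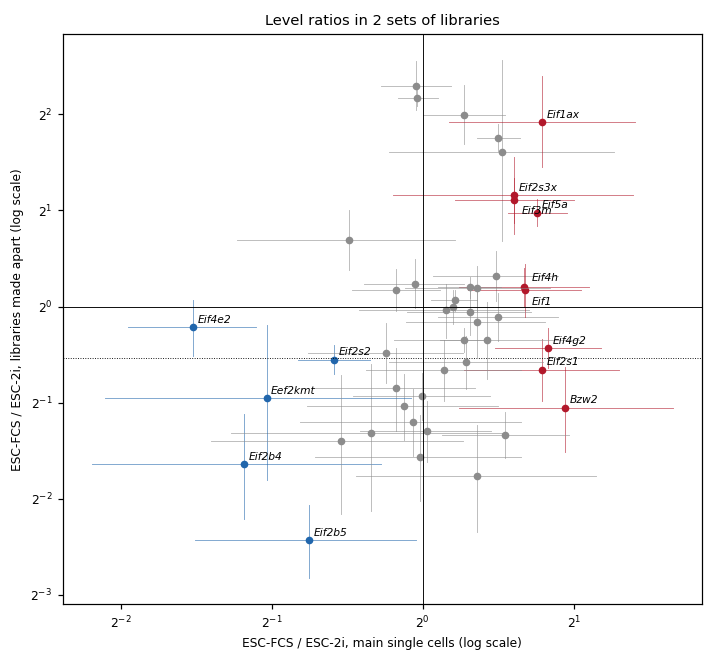
Level ratio of ESC-FCS to ESC-2i in the main single cells (x axis) and in the libraries made apart (y axis), both on log scales, for the 46 genes tested in both sets. Lines are exact 95% counting intervals, and named genes were called in the main cells, higher in red and lower in blue. The dotted line is the median ratio of all genes in the libraries made apart, 0.692. Bzw2 and Eif2s1 lie to the right and below that line, and Eif4g2 lies between it and 1.

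At the 3′ ends, 3 of 43 members used the downstream site more in ESC-FCS and 6 less, beside 10.9% and 8.32% of 2692 genes. Eif4b kept the direction of its shift in these libraries, with 82.8% downstream in ESC-FCS and 48% in ESC-2i, and so did Eif4g2, with 16.2% and 39.5%. Eif4e turned over without a call, with 75% in ESC-FCS (60.4 to 86.4) and 68.6% in ESC-2i (58.8 to 77.3). Bzw1, Eif1 and Eif2s2 were called less downstream in ESC-FCS here. Eif1 had 80.7% in ESC-FCS (73.8 to 86.5), and Eif2s2 25% (21 to 29.3). Bzw1 had 38.6% downstream in ESC-FCS (32 to 45.5), near its share in the main cells, but 79.5% in the ESC-2i pools (75.4 to 83.2).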

How the data were processed

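BATSeq counts of molecules per gene and per polyadenylation site in single mouse cells were used as deposited. The authors trimmed poly(A) reads, aligned them to GRCm38 with ERCC sequences, removed multiply aligned, low-quality and internally primed reads, collapsed molecular barcodes and merged nearby positions into the most used site. The submitters' processing notes name HTSeq and R 3.0.2. The deposited gene table held 107 of 144 labelled cells, each with at least 1000 molecules, and 4 of its 2111752 entries differed from the sum of sites. Depth per population was 368362 (ESC-2i), 226683 (ESC-FCS) and 151877 (NSC) molecules. Intervals cover counting error only, as no replicate cultures were described.

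Molecules were pooled per population and library batch, and divided by all molecules on genes. Level ratios and shares had exact intervals (conditional binomial, Clopper-Pearson, 95%). Variation between cells was tested by the method of Brennecke et al., with the noise fitted on ERCC spike-ins and the test run on all genes with a normalized mean above 0.5. Python 3.11.15, numpy 2.4.6, pandas 2.3.3 and scipy 1.17.1 were used, and the scripts were tested on simulated data. Sequences and gene models came from GENCODE M21 (GRCm38). The poly(A) signals were sought in windows of 30 bases within 1 annotated exon.

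Genes named with values were the 10 with most molecules, those called for level (the 10 largest ratios per direction), for site use (the 8 largest shifts) or for variation, and listed pairs of paralogues. A few others were named after their values were seen, such as Eif5, Eif3a, the additional sites of Eif4b and Eif2s2, and members with a single end. The members and lists were chosen with earlier results of these data known.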

Additional observations from a re-analysis of the deposited data

Results flagged for a closer look

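ESC-FCS against ESC-2i was measured both in the main cells and in libraries made apart, and in 5 of 46 members compared all ESC-FCS libraries lay above all ESC-2i libraries in the first set and below them in the second. These differences between the sets were not tested, and the median of all genes was 0.692 in the second set, so that a ratio below 1 there need not be low among genes. The share of all genes that turned over in this way was not computed, so the count has no background. Bzw2 was at 1.92-fold in the main cells and 0.481-fold in the libraries made apart. Eif2s1 was at 1.73-fold and 0.634-fold, and Eef2 at 1.21-fold and 0.785-fold, the latter above that median. Eif3c was at 1.22-fold and 0.668-fold, and Eif5b at 1.28-fold and 0.294-fold.

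The share at the downstream polyadenylation site was likewise on opposite sides, with no overlap of libraries within a set, in 4 of 35 members. Here too, how many of all genes did so was not computed. The difference for Bzw1 was 13 points in the main cells and -40.9 points in the libraries made apart. For Eif2s2 it was 12.8 and -21.4 points, for Eif4a1 3.03 and -5.9 points, and for Eif4g1 8.89 and -22.7 points. Between pools of 48 cells alone, the ESC-FCS pool was below both ESC-2i pools for each of the 5 levels. The rule that picked the 5 already required this order, so it adds no separate check. Bzw2 was at 1.12 against 2.57 and 2.91 per 10000, and Eif5b at 1 against 2.82 and 2.61.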

How the results depend on the processing

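In the same cells, all 230 recomputed level ratios of called members and all 51 recomputed site shifts kept their direction and stayed within their spread. Counts of calls depended more on the limits. The share of all genes called at each of these limits is not given here, so the counts are not read against a background. At a fold limit of 2, level calls numbered 13 (main value 22) for NSC against ESC-2i, 3 (10) for NSC against ESC-FCS and 3 (14) for ESC-FCS against ESC-2i, where a limit of 100 molecules left 8. At a shift of 20 points, site calls numbered 2 (6), 3 (5) and 1 (6). NSC against ESC-2i gave 10 with at least 10 molecules at the sites, and NSC against ESC-FCS 3 with at least 40. Without the margin, variable members numbered 2 (0) for ESC-2i, 3 (1) for ESC-FCS and 7 (2) for NSC. With cells of at least 2000 molecules they numbered 0 in ESC-FCS and 1 in NSC, and with no limit on the mean 6 in NSC. Batch 1 alone gave 0 in ESC-FCS, and batch 2 alone 2 in ESC-FCS and 0 in NSC. The libraries made apart gave 33 level calls for ESC-FCS against ESC-2i, and ratios of 0.481 (Bzw2), 0.634 (Eif2s1) and 0.74 (Eif4g2), and site shifts of -40.9 (Bzw1), -21.4 (Eif2s2) and 6.43 points (Eif4e), on the other side of 1 or 0 from the main cells. All genes had a median ratio of 0.692 there, which Eif4g2 exceeded. Where a stricter limit lowered a count, fewer members could pass it, and otherwise the cause was not tested. No paired analysis was possible because no test compared populations, and well numbers shared between them name no common source.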
